A study of Rattus norvegicus with 22 samples.

Results

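The genes described are the vascular endothelial growth factor (VEGF) ligands Vegfa, Vegfb, Vegfc and Pgf, the receptors Flt1, Kdr and Flt4, and the neuropilins Nrp1 and Nrp2. They were chosen by name, as the genes whose symbol, written after the Ensembl identifier in the count table, is one of these 9, and they make up 9 of its 32883 genes. RNA of the ventral cervical spinal cord of adult Sprague-Dawley rats, 3 to 4 months old, was sequenced with 1 library per rat. The groups were 5 intact males, 5 males whose testes had been removed (GDX), 6 intact females and 6 females whose ovaries had been removed (OVX). Surgery was done under isoflurane with buprenorphine, tissue was taken 2 weeks later, and intact rats of the same age served as controls. Whether the controls had a sham operation is not given in the sources used here. Rats are named by the number in their labels, so that the intact males are 1, 2, 3, 5 and 6 and the GDX males 1, 2, 4, 5 and 6. Library totals ran from 12371756 to 17571887 counted reads, with medians for intact and GDX males of 14196615 and 15645521, and for intact and OVX females of 14640726 and 14766802.5.

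The study's methods list an average input fragment size for each library, and the libraries were divided here by that size into a short-fragment class of 15 and a long-fragment class of 7. Every GDX and OVX library is of the short class, as are intact males 2 and 5 and intact females 1 and 4. The long class holds intact males 1, 3 and 6 and intact females 2, 3, 5 and 6. Because only 2 intact rats of each sex share a class with the operated rats, fragment class and gonadectomy can be separated only in part, and values by class are given beside results that move with it.

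VEGF ligands are secreted proteins that act on receptor tyrosine kinases, which are carried mainly by endothelial cells and drive their growth, survival and permeability. Neuropilins are co-receptors that bind VEGF ligands and also the class of secreted semaphorins that guide axons. In the spinal cord VEGF-A is made by neurons and glia and is known as a survival factor for motor neurons as well as for vessels.

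The tissue was checked against marker genes. The 9 motor neuron genes followed summed to 581.1 ± 150 CPM in the 5 intact males and 541.4 ± 40.9 CPM in the 5 GDX males, where CPM are reads scaled to a common library size with edgeR's TMM factors and errors are SDs between rats. The 6 intact females had 668.7 ± 85.8 CPM and the 6 OVX females 530.9 ± 81.9 CPM. These levels moved with fragment class as well. Long-fragment libraries of intact rats were higher than short-fragment ones in 9 of 9 motor neuron genes, by a list median of 0.38 (log2). Of these genes edgeR called 0, with 8 at an unadjusted p under 0.05 and 2 called by DESeq2. Of all 15147 genes tested, 1170 were at that unadjusted level. The most abundant motor neuron gene was Prph, a neurofilament-related protein of motor neurons. The 6 dorsal horn genes in the table summed to group means between 2.62 and 3.86 CPM, near 0. In bulk tissue such as this, fewer cells of a type and less RNA per cell cannot be told apart.

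Genes were compared with edgeR's quasi-likelihood test over all genes that passed edgeR's expression filter. P-values were adjusted by Benjamini-Hochberg, and a gene was called at an adjusted p under 0.1. All 9 genes passed the filter in every comparison. In GDX against intact males 4 of the 9 were called, Kdr, Flt1 and Flt4 higher and Vegfa lower, against 13.4% of the 14931 genes tested, which is 1995 genes. With library class as a term 1 of the 9, Vegfa, and 796 genes in all were called, and among short-fragment libraries alone 1 of the 9, Vegfa, and 440 genes in all. In OVX against intact females 1 of the 9 was called, Kdr, which was higher, against 0.0335% of 14910 genes. That background is 5 genes and is unstable, since DESeq2 called 174 genes and leaving out 1 rat gave from 0, without OVX female 1 or 6, to 113, without intact female 1. Leaving out OVX female 4 gave 38 genes and intact female 3 gave 13. Between intact males and intact females 1 was called, Vegfa, higher in males, against 4.01% of 14937 genes. Between GDX males and OVX females edgeR called 0 of the 9, against 0.232% of 15084 genes, and DESeq2 called 0. At an unadjusted p under 0.05 were 3 of the 9, against 1413 of the 15084 genes. The interaction, the male effect of gonadectomy minus the female effect, gave 0 of 9 in edgeR, against 0.116% of 15562 genes, and 0 in DESeq2. At an unadjusted p under 0.05 were 1 of the 9, against 1810 of the 15562 genes. The background of calls in the interaction, 18 genes, is also unstable, since DESeq2 called 243. Leaving out 1 rat gave from 1, without GDX male 5, to 275, without GDX male 1. Between long-fragment and short-fragment libraries of intact rats, with sex as a term, edgeR called 0 of 9, against 0.0066% of 15147 genes. DESeq2 called 0 there, and 2 of the 9 were at an unadjusted p under 0.05, against 1170 of the 15147 genes. The ranges of CPM of the compared groups did not overlap for 1 of the 9 genes in males, Kdr, against 7.47% of genes, and for 0 of 9 in females, against 0.543%.

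**Figure D1:**
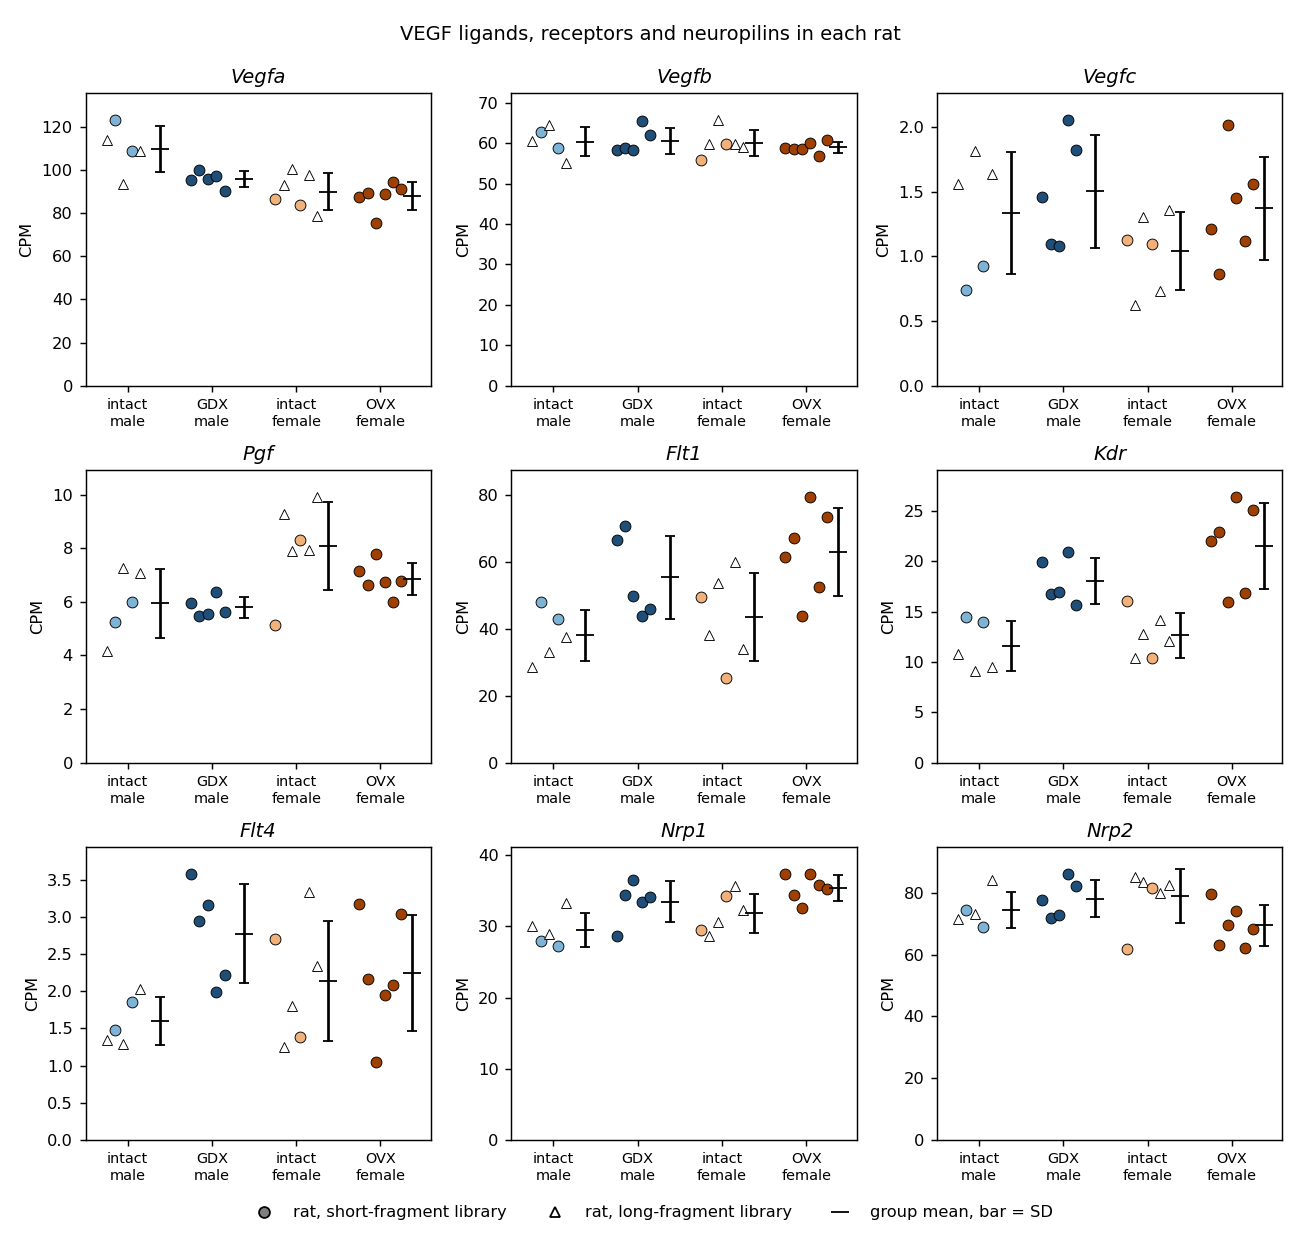
CPM (vertical axis, from 0) of each of the 9 genes in each rat by group (horizontal axis), with circles for short-fragment and triangles for long-fragment libraries and the group mean with its SD beside the points. Kdr lies at 15.6 to 20.99 CPM in GDX males, above all intact males, while Vegfb stays between 55.1 and 65.7 CPM in all 22 rats.

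**Figure D2:**
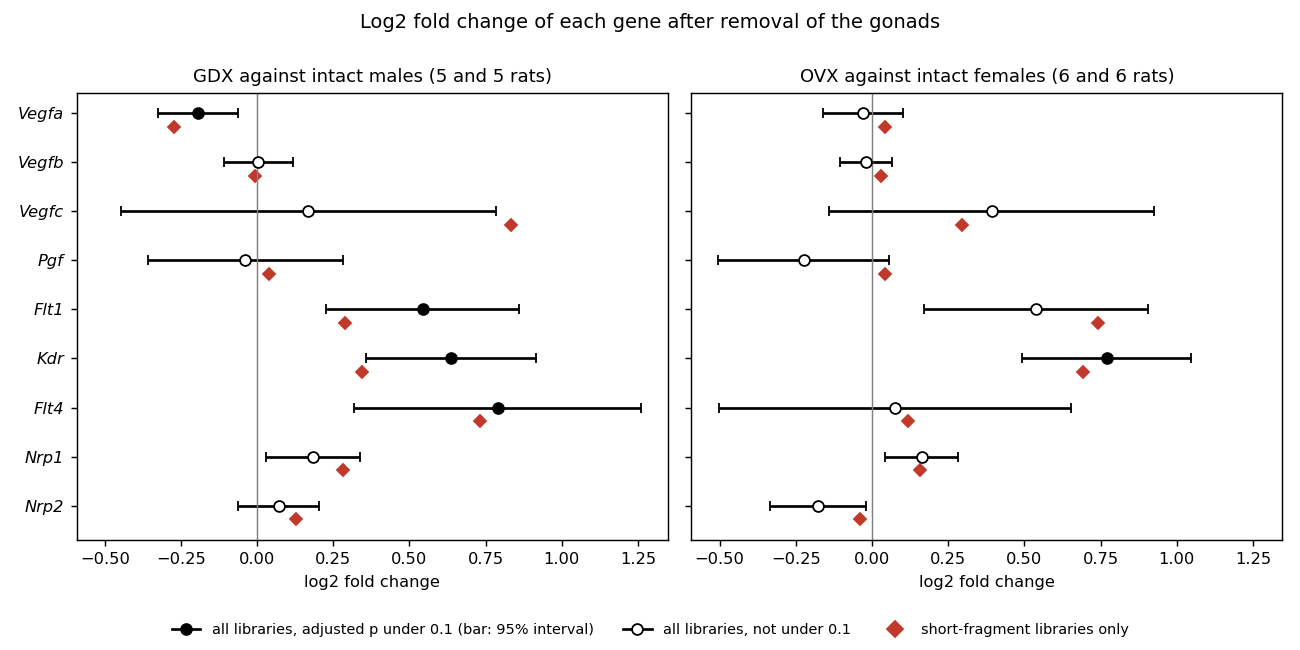
Log2 fold change of each gene (horizontal axis) with its 95% confidence interval in GDX against intact males and OVX against intact females, filled where the adjusted p was under 0.1, with diamonds for short-fragment libraries alone. Kdr has 0.64 in GDX males and 0.77 in OVX females, and the intervals of Vegfb lie close to 0.

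Vegfa (ENSRNOG00000019598), the ligand of Flt1 and Kdr and the main driver of vessel growth, had 114.1, 123.1, 93.6, 108.5 and 108.6 CPM in the intact males and 95.5, 100.1, 95.7, 97.3 and 90.0 CPM in the GDX males. Every GDX male lay below 4 of the 5 intact males, and only intact male 3 fell within the GDX range. Intact females had a lowest value of 78.5, a median of 89.7 and a highest of 100.5 CPM, and OVX females 75.6, 89.1 and 94.5 CPM, so that the female groups overlapped almost fully. Vegfa fell by 0.19 on the log2 scale in GDX males (SE 0.06, adjusted p 0.0628 in edgeR's test). The call held in 4 of the 10 fits that left out 1 rat, over which the adjusted p ran from 0.0134 to 0.149. It ended without intact males 1 (adjusted p 0.141), 2 (0.149) or 5 (0.101), and without GDX males 4 (0.107), 5 (0.109) or 6 (0.142). A fit with library class as a term gave -0.27 (adjusted p 0.0776). In females the difference was -0.03 (adjusted p 0.927), and 0.0474 (adjusted p 0.931) with class as a term. Among intact rats Vegfa was higher in males than in females by 0.29 (SE 0.07, adjusted p 0.0435), a call that held in 9 of 11 fits without 1 rat and ended without intact males 1 (adjusted p 0.112) or 2 (0.114). Among short-fragment intact rats, 2 of each sex, the difference was 0.44 (adjusted p 0.144). The order of group means ran from OVX females (87.8 ± 6.48 CPM) through intact females (89.9 ± 8.48) and GDX males (95.7 ± 3.67) to intact males (109.6 ± 10.7), and only the last step was larger than both of its groups' SDs. Between GDX males and OVX females the difference was 0.13 (adjusted p 0.458).

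Vegfb (ENSRNOG00000021156), a ligand of Flt1 linked to fatty acid uptake in endothelium, was the steadiest of the genes. It lay between 55.1 and 65.7 CPM in all 22 rats, with a coefficient of variation of 4.64%, and its group means ran from 58.9 ± 1.40 CPM in OVX females to 60.5 ± 3.14 CPM in GDX males. Its log2 fold change was 0.00 (SE 0.05) in males and -0.02 (SE 0.04) in females.

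Vegfc (ENSRNOG00000011416), a ligand of Flt4 and, once processed, of Kdr, was at the low end of detection with 9 to 29 counts per library. Group means for intact and GDX males were 1.34 ± 0.472 and 1.50 ± 0.435 CPM, and the GDX males ranged from 1.08 to 2.06 CPM. Intact females had 0.622, 1.11 and 1.36 CPM as lowest, median and highest, and OVX females 0.867, 1.33 and 2.02 CPM. All groups overlapped. The log2 difference was 0.17 (SE 0.29) in males and 0.39 (SE 0.25) in females, and neither was called. By class, short-fragment intact males had 0.740 and 0.927 CPM, below every GDX male, and long-fragment ones 1.56 to 1.81 CPM, within the GDX range. With class as a term the male difference was 0.83 (adjusted p 0.218), also not called.

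Pgf (ENSRNOG00000005650), placental growth factor, binds Flt1 and not Kdr. The intact males had 4.18, 5.25, 7.25, 6.00 and 7.09 CPM and the GDX males 5.97, 5.48, 5.53, 6.38 and 5.60 CPM. The GDX values lay inside the range of the intact males. Intact females had 5.12, 8.13 and 9.91 CPM as lowest, median and highest, and OVX females 6.01, 6.76 and 7.77 CPM. Between intact males and females the log2 difference was -0.43 (SE 0.17, adjusted p 0.231), at an unadjusted p of 0.0227. It was called only without intact female 1 (adjusted p 0.061). Between OVX and intact females it was -0.22 (SE 0.13, adjusted p 0.604), and with class as a term 0.0468 (adjusted p 0.971). The short-fragment intact females were rat 1, at 5.12 CPM, and rat 4, at 8.31 CPM, the latter within the 7.91 to 9.91 CPM of the long-fragment ones. The difference between classes of intact rats, 0.27, was 0.10 (adjusted p 0.954) without intact female 1.

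Kdr (ENSRNOG00000046829) is the main signalling receptor of endothelial cells for VEGF-A. Flt1 (ENSRNOG00000000940) binds VEGF-A more tightly but signals weakly and also occurs as a soluble form that takes up ligand. Flt4 (ENSRNOG00000002511), the receptor for VEGF-C, is best known from lymphatic vessels and is also made by other endothelial cells. The promoter windows of these receptors are given because all 3 were higher in GDX males. They run from 250 bases before to 50 bases after the start of the gene in RefSeq's rat build GRCr8, which is not the build of the counts. All 9 genes had such a window, in 10 windows since Vegfa had 2. Windows are Kdr at chr14:32571813-32572112, Flt1 at chr12:12333180-12333479 and Flt4 at chr10:34414584-34414883, all on the plus strand, written 5′ to 3′. Capitals mark GGGCGG, the Sp1 box, on either strand, and in Flt1 also TATAAA, the TATA box.

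Kdr: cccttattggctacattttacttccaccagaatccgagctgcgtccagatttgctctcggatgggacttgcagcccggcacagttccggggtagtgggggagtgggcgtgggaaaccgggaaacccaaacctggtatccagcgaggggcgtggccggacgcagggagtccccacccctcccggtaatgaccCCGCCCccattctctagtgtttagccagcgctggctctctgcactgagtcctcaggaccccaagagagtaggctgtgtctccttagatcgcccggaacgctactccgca
Flt1: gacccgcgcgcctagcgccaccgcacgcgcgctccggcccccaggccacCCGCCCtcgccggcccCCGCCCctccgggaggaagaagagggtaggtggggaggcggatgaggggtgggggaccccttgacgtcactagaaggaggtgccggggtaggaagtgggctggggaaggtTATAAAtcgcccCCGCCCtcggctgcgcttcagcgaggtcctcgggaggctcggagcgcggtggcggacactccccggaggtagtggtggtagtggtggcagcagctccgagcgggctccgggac
Flt4: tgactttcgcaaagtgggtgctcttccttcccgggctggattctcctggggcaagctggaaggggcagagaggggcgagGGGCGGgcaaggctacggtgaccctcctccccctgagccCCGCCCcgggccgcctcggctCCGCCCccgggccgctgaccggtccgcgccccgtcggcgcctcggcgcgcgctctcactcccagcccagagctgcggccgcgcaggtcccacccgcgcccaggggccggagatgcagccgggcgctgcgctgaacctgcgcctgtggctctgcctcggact

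An Sp1 box was present in 33.1% of the 33469 rat windows of this length in the table and the TATA box in 14.2%. Kdr held 1 Sp1 box at base -59, Flt1 held 3 at -201, -185 and -63 with a TATA box at -75, and Flt4 held 3 at -171, -132 and -111. Vegfb held 4 Sp1 boxes, Vegfc and Pgf 2 each, and Vegfa 3 in 1 window and 0 in the other. The windows of Nrp1 and Nrp2 held 0. ACGTG, a form of the core of the hypoxia response element, was found in 19.3% of all windows and in 0 of the 10 windows of these genes. Only this form of the core was searched. The full palindromic oestrogen response element GGTCANNNTGACC, present in 0.0269% of windows, and the androgen response element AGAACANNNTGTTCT, in 0.0149%, were also not found in the 10. Motifs were searched on both strands, and a match describes letters in a window only.

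Kdr had 10.8, 14.5, 9.14, 14.0 and 9.51 CPM in the intact males and 19.97, 16.8, 16.9, 20.99 and 15.6 CPM in the GDX males, from 121 to 474 counts per library over all rats. Every GDX male was above every intact male. The intact females had 10.4, 12.5 and 16.03 CPM as lowest, median and highest, and the OVX females 15.99, 22.5 and 26.4 CPM. Their ranges overlapped only because intact female 1, at 16.03 CPM, lay just above OVX female 3, at 15.99 CPM. Kdr rose by 0.64 on the log2 scale in GDX males (SE 0.13, 95% interval 0.36 to 0.91, adjusted p 0.0102 in edgeR's test) and was called in all 10 fits without 1 rat. In OVX females it rose by 0.77 (SE 0.13, interval 0.49 to 1.05, adjusted p 0.0966), and was called in 6 of 12 fits without 1 rat, over which the log2 change ran from 0.70 to 0.85. The call ended without intact females 2 (adjusted p 0.129), 4 (0.15) or 6 (0.183), and without OVX females 1 (0.187), 2 (0.224) or 6 (0.206). Between the sexes the difference of these effects was -0.13 (interval -0.55 to 0.29, adjusted p 0.858). DESeq2 called Kdr in both sexes.

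Kdr was also lower in long-fragment than in short-fragment libraries of intact rats, by -0.31 (SE 0.13, adjusted p 0.583, unadjusted p 0.027). Intact males 2 and 5, of the short class, had 14.5 and 14.0 CPM, and the 3 of the long class 9.14 to 10.8 CPM. In intact females the class means were 13.2 and 12.4 CPM. With class as a term the log2 difference of Kdr was 0.34 in males (adjusted p 0.15) and 0.70 in females (adjusted p 0.456), and among short-fragment libraries alone 0.34 (adjusted p 0.185) and 0.69 (adjusted p 0.563). Both calls thus ended when class was taken into account, with 2 intact rats of each sex left to compare, while the short-fragment intact males still lay below all GDX males.

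Flt1 had 28.6, 47.9, 33.1, 43.0 and 37.7 CPM in the intact males and 66.6, 70.7, 49.7, 43.8 and 46.0 CPM in the GDX males. Only intact male 2 lay inside the GDX range, and GDX males 1 and 2 were well above the rest. Intact females had 25.4, 43.8 and 60.1 CPM, and OVX females 43.8, 64.3 and 79.4 CPM. Flt1 rose by 0.54 in GDX males (SE 0.15, adjusted p 0.0352) and was called in all 10 fits without 1 rat. In OVX females the log2 difference was also 0.54 (SE 0.17, interval 0.17 to 0.90), with an adjusted p of 0.293. The interaction was 0.01 (interval -0.53 to 0.55, adjusted p 0.994). The short-fragment intact males averaged 45.5 CPM and the long-fragment ones 33.1 CPM. In intact females the order was the other way, 37.4 against 46.5 CPM. With class as a term the male difference was 0.29 (adjusted p 0.38) and the female one 0.74 (adjusted p 0.584).

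Flt4 was low, with 14 to 55 counts per library. The intact males had 1.35, 1.48, 1.28, 1.85 and 2.03 CPM and the GDX males 3.58, 2.94, 3.17, 1.99 and 2.22 CPM. Only GDX male 5 fell below the highest intact male. Flt4 rose by 0.79 in GDX males (SE 0.22, interval 0.32 to 1.26, adjusted p 0.0389), again in all 10 fits without 1 rat. Intact females had 1.24, 2.08 and 3.34 CPM and OVX females 1.05, 2.13 and 3.17 CPM, which overlapped throughout. The female log2 difference was 0.07 (SE 0.27, adjusted p 0.961). The sexes were not shown to differ in this effect, since the interaction was 0.72 (interval -0.06 to 1.50, adjusted p 0.468). With class as a term the male estimate stayed at 0.73 but was no longer called (adjusted p 0.214). The call also ended with the replicate number as a block.

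Nrp1 (ENSRNOG00000010744), a co-receptor of Kdr for VEGF-A, had 30.1, 28.0, 28.9, 27.2 and 33.3 CPM in intact males and 28.7, 34.5, 36.6, 33.5 and 34.2 CPM in GDX males. Apart from GDX male 1, the GDX males lay above all intact males. Intact females had 28.7, 31.5 and 35.7 CPM and OVX females 32.6, 35.5 and 37.4 CPM. Its log2 difference was 0.18 (SE 0.07, adjusted p 0.135) in males and 0.16 (SE 0.06, adjusted p 0.329) in females, and neither was called. With all 22 rats in 1 fit the male difference of 0.18 reached an adjusted p of 0.0941, and it was also called without intact male 6 (adjusted p 0.0688) or GDX male 1 (0.0358). Short-fragment intact males had 27.2 and 28.0 CPM, below all GDX males, and long-fragment ones 28.9 to 33.3 CPM. The male difference with class as a term was 0.28 (adjusted p 0.119), not called.

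Nrp2 (ENSRNOG00000031232), a co-receptor of Flt4 for VEGF-C that also binds semaphorins, had 71.6, 74.5, 73.2, 69.0 and 84.2 CPM in intact males and 77.6, 72.1, 73.0, 86.2 and 82.3 CPM in GDX males, fully overlapping. Intact females had 61.8, 82.1 and 85.4 CPM and OVX females 62.3, 68.9 and 79.7 CPM. Intact female 1 stood apart at 61.8 CPM, where the other intact females had 80.1 to 85.4 CPM. Nrp2 differed by 0.07 in males (adjusted p 0.539) and by -0.18 in females (SE 0.07, adjusted p 0.427), and the interaction of 0.25 (SE 0.11) had an unadjusted p of 0.0256 and an adjusted p of 0.34. Without intact female 1 the female comparison reached an adjusted p of 0.0947. Nrp2 was higher in long-fragment than in short-fragment libraries of intact rats by 0.15 (SE 0.07, adjusted p 0.603, unadjusted p 0.0386), which was 0.0610 (adjusted p 0.893) without intact female 1. The short-fragment intact females were this rat, at 61.8 CPM, and intact female 4, at 81.6 CPM, the latter within the 80.1 to 85.4 CPM of the long-fragment ones, and OVX females averaged 69.5 CPM. The female difference with class as a term was -0.0353 (adjusted p 0.96).

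Among the 9 genes, the highest Pearson's r of log2 CPM over the 22 rats was that of Flt1 and Kdr (0.830), followed by Flt1 and Flt4 (0.642). With group means subtracted Pgf and Nrp2 had 0.680, Flt1 and Kdr 0.675 and Flt1 and Flt4 0.627. These are descriptions over rats that share a group structure and whose libraries are of both fragment classes. The genes most like Flt1 over the 22 rats were Ptprb, Adgrf5 and Tie1 (r 0.972, 0.969 and 0.956). Among the 15 short-fragment libraries these were 0.967, 0.961 and 0.935. Ptprb is a phosphatase that acts on endothelial receptors and Tie1 an endothelial receptor. Most like Kdr were Apcdd1, Itm2a, Podxl, Cd93 and RGD1310587 (0.876, 0.875, 0.874, 0.867 and 0.863), and with group means subtracted Ocln, a tight junction protein of the blood-brain barrier, at 0.849, Plcg1, a phospholipase that VEGF receptors activate, at 0.821, Dusp15 at 0.820, Rnf31 at 0.801 and Sh3bp4 at 0.789. Flt1 had Adgrf5 at 0.959, Ptprb at 0.951 and Tie1 at 0.937 on that measure. The mean of the endothelial genes, none of them a VEGF gene, had an r of 0.932 with Flt1, 0.860 with Kdr and 0.628 with Flt4 over the 22 rats. With group means subtracted these were 0.906, 0.654 and 0.559. Vegfa had an r of -0.0681 with them over the rats and 0.624 with group means subtracted.

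For the other genes the r of the genes named were lower than those of Flt1. Flt4 had Afap1l1, Wiz and She (0.748, 0.712 and 0.708) and, with group means subtracted, Ushbp1, Hid1 and Gorasp1 (0.777, 0.739 and 0.736). Vegfa had ENSRNOG00000007367, Ttpal and Top3b (0.810, 0.796 and 0.792), or Map3k11, Cic and Actr8 (0.826, 0.802 and 0.790) with group means subtracted. Vegfb had Chkb, AABR07071395.1 and LOC108348080 (0.737, 0.70995 and 0.679), or Clec2g, Chkb and Cebpd (0.801, 0.777 and 0.756). Different genes thus led for each ligand. Vegfc, at its low counts, had Snx6, Tank and Arf2 (0.866, 0.729 and 0.716), or Snx6, Usp12 and Rspo1 (0.851, 0.795 and 0.765) after subtraction. Pgf had Prdx6, Evc and Pygm (0.780, 0.779 and 0.772), or Evc, Slc1a2, an astrocyte glutamate transporter, and Htra1 (0.825, 0.817 and 0.788). The genes named for the neuropilins differed. Nrp1 had Gnai2, Hrc and Tcf7 (0.803, 0.801 and 0.777), or AABR07021734.1, Itgb1bp1 and Syndig1 (0.819, 0.790 and 0.768). Nrp2 had Mpzl3 and Rab3b (0.788 and 0.776), or Lxn and Nup62 (0.796 and 0.796).

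The receptors are carried by endothelial cells, so each was also set against the other endothelial genes of the same library, as log2 CPM minus the mean log2 CPM of 22 endothelial genes. That mean was higher by 0.46 in GDX than in intact males and by 0.37 in OVX than in intact females. Kdr lay above it by 0.66 ± 0.17 in GDX and 0.47 ± 0.26 in intact males, and the difference of 0.19 gave an exact permutation p of 0.222 (two-sided, adjusted 0.301 over 6 tests, smallest possible p 0.00794). In females the values were 0.89 ± 0.15 in OVX and 0.51 ± 0.21 in intact rats, a difference of 0.38 with an exact p of 0.0108 (two-sided, adjusted 0.0648, smallest possible p 0.00216). OVX females ranged from 0.68 to 1.03 and intact females from 0.29 to 0.75, so that the groups overlapped in part. The female difference ran from 0.34 to 0.43 when 1 rat was left out, with an adjusted p from 0.0389 to 0.13, under 0.1 only without intact females 1 or 6 or OVX females 3 or 5. Among short-fragment libraries the female difference was 0.21 (adjusted p 0.429) and that of males -0.02. With 2 intact rats of each sex there, few splits are possible, so the exact test can hardly reach the threshold. For Flt1 the differences were 0.08 in males (exact p 0.603) and 0.19 in females (exact p 0.0996), and for Flt4 0.28 (exact p 0.159) and -0.30 (exact p 0.251). Among short-fragment libraries the female difference of Flt1 was 0.30 (adjusted p 0.429), larger than that of Kdr. Whether the receptors or the sexes differ from each other in this measure was not tested.

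**Figure D3:**
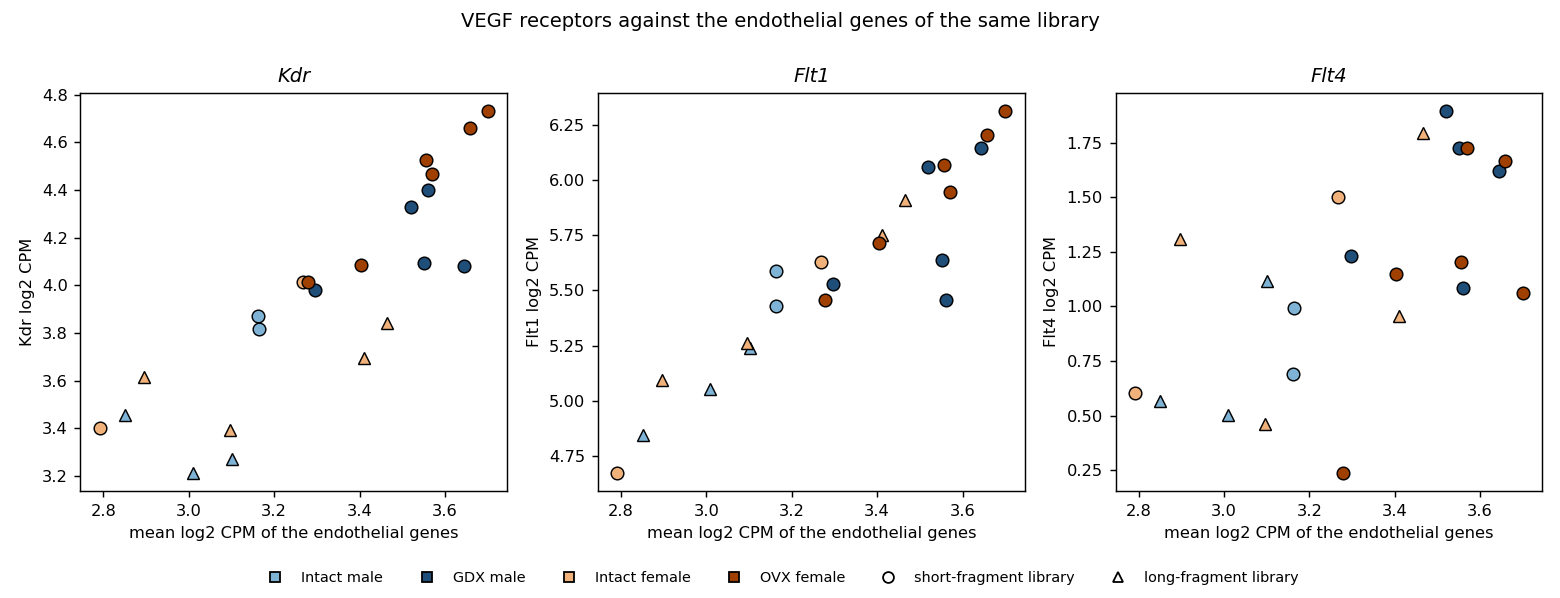
Log2 CPM of Kdr, Flt1 and Flt4 in each rat (vertical axis) against the mean log2 CPM of the endothelial genes in the same rat (horizontal axis), by group and fragment class. Flt1 follows the endothelial mean most closely (r 0.932 over 22 rats).

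In GDX against intact males 11 of 21 endothelial genes tested were called higher and 0 lower, with a list median of 0.47, where the median of all genes was 0.00. Leading genes were Cdh5, the cadherin of endothelial junctions (1.23, adjusted p 0.00136), Podxl, a sialomucin of the vessel lumen (0.63, 0.00377), the drug exporter Abcb1a (0.31, 0.00483) and Vwf (0.77, 0.00773). The list summed to 355.6 ± 23.5 and 456.4 ± 25.9 CPM in intact and GDX males and to 383.3 ± 53.1 and 464.0 ± 44.6 CPM in intact and OVX females, with Slc16a1 most abundant and Ly6c at 0 in every library. Pericyte and smooth muscle genes rose in 6 of 11, among them Rgs5 (0.65, adjusted p 0.00957) and Tagln (0.58, 0.0126), and the list median was 0.38. Among short-fragment libraries alone, where 440 genes in all were called, 4 endothelial and 2 pericyte genes were called higher.

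In OVX against intact females edgeR called 0 of the 21 endothelial genes, with 13 at an unadjusted p under 0.05 and 5 called by DESeq2. The list median was 0.34, with 19 of 21 above 0. Slc16a1, the most abundant, had a log2 difference of 0.05 (SE 0.04) and Abcb1a 0.26 (SE 0.10, adjusted p 0.391), neither called. Of 11 pericyte genes 0 were called, with 4 at an unadjusted p under 0.05 and 1 called by DESeq2. Myh11, the smooth muscle myosin, had 0.31 (SE 0.08, adjusted p 0.217).

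Among all genes, 6.78% were called higher and 6.58% lower in GDX males. Of 14 angiopoietin, apelin and Notch genes that work beside VEGF in vessel growth, 4 were called higher and 0 lower. These were Aplnr, the apelin receptor (0.61, adjusted p 0.00684), Tek, the angiopoietin receptor (0.49, 0.00752), Tie1 (0.49, 0.0296) and Angpt1, the ligand of Tek (0.50, 0.0779), with a list median of 0.23. Of 9 genes known to answer VEGF in endothelium, Esm1 (2.1, adjusted p 0.00678) and Nid2 (0.53, 0.00848) rose and 0 fell, with a median of 0.28. Esm1 was at the low end of detection, with 0.351 ± 0.147 CPM in intact males and 1.52 ± 0.618 CPM in GDX males. Pgf belongs to both the VEGF-responsive list and the 9 genes. Beside the 6.78% of all genes called higher, the calls in both lists are of single genes, and neither list was tested as a whole. In females edgeR called 0 of 14 and 0 of 9, with 5 and 1 at an unadjusted p under 0.05 and 1 and 0 called by DESeq2. Tek had 0.49 (SE 0.15, adjusted p 0.283) there, Aplnr 0.30 (SE 0.07, 0.16) and Esm1 0.28 (SE 0.30, 0.82). Between GDX males and OVX females Igfbp3 was the only gene of the VEGF-responsive list called, lower in GDX males by -1.16 (adjusted p 0.0638).

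Of 40 genes that carry or damp the signal from VEGF receptors, 4 rose and 1 fell in GDX males, and the list median was 0.02. This share is near the 13.4% called among all genes, 6.78% higher and 6.58% lower, and is not a result about the list. Mapk3, an ERK kinase, rose by 0.26 (adjusted p 0.00848), Ptprb by 0.52 (0.0219) and Nos3, the nitric oxide synthase of endothelium, by 0.46 (0.0431), while the transcription factor Nfatc2 fell by 0.35 (adjusted p 0.0193). In females edgeR called 0 of 40, with 6 at an unadjusted p under 0.05 and 1 called by DESeq2. Of 7 genes that govern the supply of VEGF ligands 1 rose in males, Epas1, a hypoxia-inducible factor (0.19, adjusted p 0.0908), again near the share of all genes. In females edgeR called 0 of 8, with 2 at an unadjusted p under 0.05 and 1 called by DESeq2, and Epas1 had 0.14 (SE 0.05, adjusted p 0.329).

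Of 12 semaphorin ligands and plexins that work with neuropilins, Sema3b (0.67, adjusted p 0.00472) and Plxnd1, a plexin of endothelial cells (0.48, 0.0069), rose and Plxna4, a plexin of neurons, fell by 0.34 (0.0157) in GDX males, with a median of 0.13. Among all genes 6.78% were called higher and 6.58% lower, and these calls are of single genes, not a result about the list. In females edgeR called 0 of 12, with 2 at an unadjusted p under 0.05 and 1 called by DESeq2, and Plxnd1 had 0.48 (SE 0.12, adjusted p 0.171). 

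**Figure D4:**
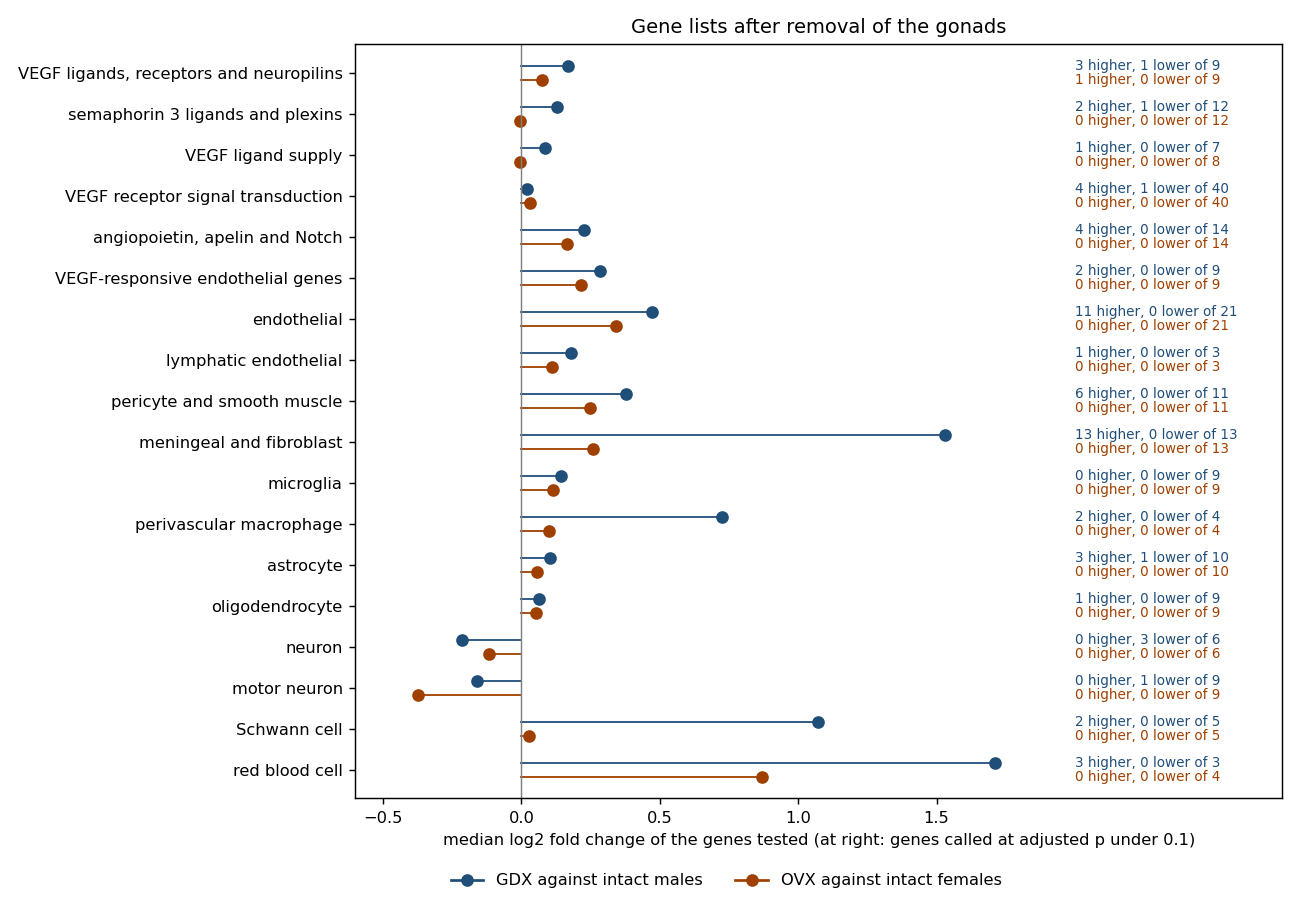
Median log2 fold change of each gene list (horizontal axis) in GDX against intact males and OVX against intact females, with the numbers of genes called at right, without the dorsal horn list, of which 1 or 2 genes were tested. The meningeal and fibroblast list has 1.53 in males and 0.26 in females, and the endothelial list 0.47 and 0.34.

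Marker genes of other cells moved in the same comparison. All 13 meningeal and fibroblast genes tested rose in GDX males, with a median of 1.53. Among short-fragment libraries alone, where 440 genes in all were called, 8 of them were called. Col1a1, the most abundant, averaged 33.3 CPM in intact males and 116.6 CPM in GDX males. The list summed to 137.8 ± 52.8 CPM (78.8 to 216.1) and 417.7 ± 165 CPM (194.7 to 623.1) in intact and GDX males, and to 334.6 ± 142 and 412.5 ± 83.6 CPM in intact and OVX females, lowest in the intact males. In females edgeR called 0 of 13, with 0 at an unadjusted p under 0.05 and 0 in DESeq2, and between intact males and females 10 of 13 were lower in males. Red blood cell genes rose in 3 of 3 in GDX males. They summed to 13.7 ± 5.25 and 43.9 ± 30.5 CPM (17.6 to 92.0) in intact and GDX males. In intact and OVX females they summed to 19.1 ± 9.05 and 35.4 ± 7.37 CPM, with Hba-a2 the most abundant. The study's methods state that rats were perfused with ice-cold saline. Schwann cell genes rose in 2 of 5 by edgeR and 0 of 5 by DESeq2, and perivascular macrophage genes in 2 of 4 (Mrc1 0.85, F13a1 0.96). Among astrocyte genes 3 of 10 rose and 1 fell, with Gfap at 0.38, and of oligodendrocyte genes 1 of 9 and of lymphatic genes 1 of 3 rose, the latter Pdpn at 0.53. Of 6 neuron genes 3 fell, and of 9 motor neuron genes 1, Slc18a3, the vesicular acetylcholine transporter, which fell by 0.43, and 0 motor neuron genes were called with class as a term. The shares of oligodendrocyte and motor neuron genes called, 1 of 9 each, are no higher than the 13.4% of all genes and are not results about these lists, and the lymphatic share rests on 1 gene. edgeR called 0 of 9 microglia genes, with 1 at an unadjusted p under 0.05 and 1 in DESeq2, and 0 of 2 dorsal horn genes, with 0 and 0. Of all 14931 genes tested in males, 3549 were at that unadjusted level. The part of the marked cell types in the changes of the VEGF genes was not tested.

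In females edgeR called 0 genes in each of these lists. At an unadjusted p under 0.05 there were 1516 of the 14910 genes tested, a share from which 2 of 9 or the 6 of 40 signalling genes are not far and to which the other counts at that level also compare. By list there were 4 of 4 red blood cell genes (DESeq2 1), 6 of 9 motor neuron genes (DESeq2 2), 4 of 6 neuron genes (DESeq2 2), 3 of 10 astrocyte genes (DESeq2 1), 2 of 9 microglia and 2 of 9 oligodendrocyte genes (DESeq2 0 in each), and 0 of 4 perivascular macrophage, 0 of 5 Schwann cell, 0 of 3 lymphatic and 0 of 1 dorsal horn genes (DESeq2 0 in each). Prph, the most abundant motor neuron gene, had -0.37 in OVX females (SE 0.10, adjusted p 0.194). Prph was also higher by 0.43 in long-fragment than in short-fragment libraries of intact rats (SE 0.12, adjusted p 0.386). The motor neuron list median was -0.37 in OVX females, -0.16 in GDX males and 0.38 between these classes. Of the long class are 4 of the 6 intact females and 0 of the 6 OVX females. In males these are 3 of the 5 intact and 0 of the 5 GDX rats. The cause of these differences was not tested.

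Between intact males and females edgeR called 4.01% of all genes, 2.56% lower and 1.45% higher in males. Lower in males were Cdh5 (-1.13, adjusted p 0.00181), 1 of 21 endothelial genes, Aplnr (-0.40, 0.0148), 1 of 14 partners of VEGF, Esm1 (-1.96, 0.0148), 1 of 9 VEGF-responsive genes, Hif3a (-1.86, 0.0349), 1 of 8 genes of ligand supply, and Sema3b and Sema3c (-0.72 and -0.32, 0.0101 and 0.0961), 2 of 12 semaphorins and plexins. In these lists 0 genes were called higher, and of 40 signalling genes 0 were called. Esm1 was at the low end of detection, averaging 0.351 CPM in intact males and 1.39 CPM in intact females. The calls are of single genes, and shares such as 1 of 21 are near that of all genes and are not results about the lists. In the interaction edgeR called 0 of 22 endothelial genes, with 1 at an unadjusted p under 0.05 and 1 called by DESeq2. Of 13 meningeal genes it called 0, with 11 at an unadjusted p under 0.05 and 4 called by DESeq2.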

How the data were processed

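RNA of the ventral cervical spinal cord was sequenced from 22 rats. The authors deposited read counts per gene, not normalized. The submitters' processing notes name FastQC, TopHat2 2.0.13, Subread and edgeR with Rnor_6.0, whereas the paper's methods name Trimmomatic, Hisat2 and featureCounts; the library kit also differs, Illumina TruSeq per the labels and a SMARTer pico kit in the methods. Strand and multi-mapping settings are not given in the sources used here, so overlapping, antisense and paralogous genes such as Hba-a2 are uncertain. The count table of 32883 genes was used whole.

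Comparisons used R 4.3.3 and edgeR 4.0.16 (filterByExpr, TMM, glmQLFit, glmQLFTest) with Benjamini-Hochberg adjustment over all genes, called at an adjusted p under 0.1, on the groups compared, or on all 22 rats for the interaction. CPM were scaled by TMM over all rats, and log2 CPM had a prior count of 2. Receptors relative to endothelial genes were tested by exact two-sided permutation, adjusted over 6 tests. Library totals of 12371756 to 17571887 limit precision for low genes, and reads lack molecular identifiers, so p-values measure spread between rats. No 2 of the 50 pairs of rats within a group agreed within sampling noise (chi-square per gene 5.19 to 23.7).

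The members and lists were chosen with earlier results of these data known. Named are the 9 members, up to 4 called genes of each list with the smallest adjusted p, or up to 2 most abundant where none was called, and the genes most correlated with each member, of which 1 is not reported here. Genes named beyond that rule were chosen after their values were seen. Alternatives tried were RLE factors, DESeq2 1.42.0, no expression filter, a filter at 1 CPM, all rats in 1 fit, library class as a term, short-fragment libraries only, a replicate block, a prior count of 0.5, the list's median, and each rat left out. The pipeline was tested on simulated data. limma 3.58.1 was loaded with edgeR. Promoter windows came from RefSeq, build GRCr8.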

Additional observations from a re-analysis of the deposited data

Results flagged for a closer look

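Of 120 groups of values searched for a single rat far from the others, 3 were found. Chance gives about 5% of the groups searched, so 3 of 120 is no more than chance would give. Nrp2 in intact female 1 was 61.8 CPM, and the other intact females had 80.1 to 85.4 CPM. The mean log2 CPM of the astrocyte genes in the same rat was 8.09, against 8.25 to 8.31 in the others. The mean log2 CPM of the microglia genes in OVX female 4 was 3.68, against 3.89 to 3.97 in the other OVX females. Intact female 1 is of the short-fragment class, and the causes were not tested.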

How the results depend on the processing

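Of 378 member fold changes in other settings 343 kept direction and side of the threshold, 12 weakened, 1 strengthened and 22 reversed. With 1 rat left out these were 634, 14, 4 and 41 of 693. The cause was not tested.

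DESeq2 called 174 genes in OVX against intact females, 130 in GDX males against OVX females, 243 in the interaction and 58 between classes. No filter gave 11, 33 and 210 for OVX, the interaction and class, and Vegfb in males -0.00139. A filter at 1 CPM gave 6 in the interaction. All 22 rats in 1 fit gave 9 for OVX and 61 for GDX males against OVX females.

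With class as a term, 1 VEGF gene and 796 genes in all were called in males (Vegfb -0.00755, Pgf 0.0390), 0 and 3 in females (Vegfa 0.0474, Vegfb 0.0330, Pgf 0.0468), and 6 in the interaction. Short-fragment libraries alone, which leave 2 intact rats of each sex, gave 1 and 440 in males (Vegfb -0.00629, Pgf 0.0404), 0 VEGF genes in females (Vegfa 0.0437, Vegfb 0.0293, Pgf 0.0421), 0 and 34 between intact sexes (Vegfc -0.40, Flt1 0.27, Kdr 0.10, Nrp2 0.00627) and 5 in the interaction (Vegfb -0.0361, Vegfc 0.54, Pgf -0.00147, Flt1 -0.45). Relative to endothelial genes Kdr was -0.0192 and Flt1 -0.0929 in males and Kdr 0.21 in females.

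Rats share only a number: over 20 same-numbered pairs r of deviations in 500 genes ran from -0.127 to 0.146, with 2 over 0.1 and 1 best matched to its own number. With the replicate number as a block, 3 VEGF genes, without Flt4, and 1274 genes in all were called in males (Pgf 0.0738). There were 0 VEGF genes and 0 genes in females, 0 and 255 between intact sexes, and 0 in the interaction (Nrp1 -0.0118), with Vegfa 0.0360 between classes.

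With 1 rat left out, genes called ran from 1202 to 2446 in males, 0 to 113 in OVX females, 352 to 777 between intact sexes, 23 to 44 between GDX and OVX, 1 to 275 in the interaction and 0 to 2 between classes. VEGF genes called ran from 3 to 5, 0 to 2 and 0 to 2 in the first 3. Kdr relative to endothelial genes in OVX females was 0.34 to 0.43. Log2 fold changes that crossed 0 were Flt1 in the interaction (-0.10 to 0.12) and between classes (-0.30 to 0.0488), Flt4 in OVX females (-0.0572 to 0.24) and between classes (-0.20 to 0.19), Nrp1 in the interaction (-0.0106 to 0.0751), Pgf in males (-0.14 to 0.0382), Vegfa in OVX females (-0.0670 to 0.00466) and between classes (-0.0465 to 0.0554), and Vegfb in males (-0.0288 to 0.0287), OVX females (-0.0401 to 0.00698), intact sexes (-0.0127 to 0.0434) and the interaction (-0.00347 to 0.0535). Vegfc and Flt4 have the lowest counts per library of the 9 genes.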

Other observations

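Nrp2 and Pgf varied with markers of other cells within groups. With group means subtracted, Nrp2 had a Pearson r of 0.767 with the mean of the motor neuron genes over 22 rats (Spearman 0.772). It was 0.665 without the 2 rats farthest from the median. Among the 15 short-fragment libraries it was 0.752, but the subtracted means were of both classes, so class was not removed. Without subtraction the r in these 15 libraries was 0.538. With group means subtracted, Pgf had an r of 0.824 with the astrocyte genes (Spearman 0.836) and 0.611 without the 2 farthest rats. Among short-fragment libraries it was 0.834 by the same means of both classes, and 0.610 without subtraction. These pairs were picked after the values of 9 genes and all lists were seen. The 22 rats hold libraries of both fragment classes, and no test was made.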
